A study of Mus musculus with 2 samples.

Results

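The 10 genes described here, all of the Wnt pathway, were followed in single cells of a mouse pancreatic cancer line: the ligands Wnt10a, Wnt7a and Wnt7b, the receptor Lgr4, the surface ubiquitin ligases Rnf43 and Znrf3, the intracellular inhibitors Axin2 and Nkd1, and the nuclear factors Lef1 and Tcf7l2. They were chosen by symbol with earlier results of these data known, and all 10 were found among the 33696 features of the deposited count matrix. The cells came from KPCY 6419c5, a pancreatic ductal adenocarcinoma line. Clones 76 and 84 of this line carried BASELINE, a recorder that marks cell lineages with an adenine base editor built on the nuclease Cas12a. Per the labels the editor was transfected before single cells were sorted, so each line in the pool descends from 1 cell. The 2 clones had been editing for 19 days when they were mixed in equal numbers and loaded as 1 droplet library. No unedited control was used here, and a second sample, of 5 pooled clones that include clone 76, was not analysed here.

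Cells were split into groups by genes outside the pathway. A cells held at least 2 unique molecular identifiers (UMIs, counted transcripts) of Pde10a, Plcb1, Galnt18, Arhgap15 and Ceacam1 together, and at least 3 times as many as of the B genes. B cells met the mirrored rule with S100a7a, Rgs20, Hs6st2, Ccbe1, Ctse and Mal. These are groups by expression and are not labelled clones. With 1 library neither group has a replicate, so no test was possible. All intervals below are 95% intervals that cover counting error only.

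Wnt proteins are secreted lipid-modified signals that bind Frizzled receptors with the co-receptors Lrp5 and Lrp6, which stabilises beta-catenin and lets it act with TCF and LEF factors on target genes. The pathway limits itself: Axin2 helps to destroy beta-catenin, Nkd1 binds Dishevelled, and Rnf43 and Znrf3 remove Frizzled from the cell surface. R-spondins, bound by Lgr4 and its relatives, clear Rnf43 and Znrf3 and so raise the response, and loss of RNF43 is known from human pancreatic tumours. Axin2, Nkd1, Lef1, Rnf43 and Znrf3 are themselves common targets of the pathway.

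The library held 22178 barcodes and 116505698 UMIs. Barcodes below 2000 UMIs or 1000 detected genes, or above 15% mitochondrial UMIs, were dropped, which left 21361 cells. There were 7816 A cells (40272805 UMIs, median 4699.5 per cell, median mitochondrial share 3.19%) and 8936 B cells (52771426 UMIs, median 5440.5 per cell, 1.89%). Another 464 barcodes held at least 2 UMIs of each gene set without meeting either rule, and 4145 met none of these conditions. The epithelial keratin Krt18 was at 1083 CPM (UMIs of a gene scaled to a fixed total of the group) in A cells and 3019 CPM in B cells. Krt8 was at 919 and 1498 CPM and Krt19 at 618 and 1584 CPM, so these keratins were plentiful in both groups. Other ductal markers were uneven: Krt7 was at 53.4 CPM in A and 1358 CPM in B, and Epcam at 31.8 and 3.16 CPM. Cdh1 was at 31.5 and 116 CPM, and Sox9 at 1.91 and 5.68 CPM. The 7 fibroblast markers summed to 145 CPM in A and 6.78 CPM in B, nearly all of it Acta2, while Col1a2, Dcn and Lum were at 0 in both groups. The 6 immune markers summed to 3.35 and 1.00 CPM, and Ptprc had 4 UMIs in A and 2 in B. The 5 endothelial markers summed to 38.6 CPM in A and 8.79 CPM in B, mostly Egfl7, and Kdr was at 0. The part of these markers in the results was not tested.

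The sequences just upstream of the transcription start are shown for 3 genes that differ in role and in level: the ligand Wnt7a, the scarce feedback target Axin2, and the receptor Lgr4. Each line gives 250 bases from RefSeq on build GRCm38.p6, 5′ to 3′ on the gene's strand, ending at the base before the annotated start. Capitals mark CG dinucleotides. The deposited counts use build GRCm39, so these coordinates belong to the reference table and not to the counts. The windows are chr6:91411354-91411603 on the minus strand for Wnt7a, chr11:108920099-108920348 on the plus strand for Axin2 and chr2:109917397-109917646 on the plus strand for Lgr4.
Wnt7a: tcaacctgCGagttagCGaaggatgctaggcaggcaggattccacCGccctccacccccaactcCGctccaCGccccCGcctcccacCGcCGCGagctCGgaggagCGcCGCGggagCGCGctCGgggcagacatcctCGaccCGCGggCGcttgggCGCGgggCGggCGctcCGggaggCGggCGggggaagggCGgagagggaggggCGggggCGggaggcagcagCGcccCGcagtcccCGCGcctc
Axin2: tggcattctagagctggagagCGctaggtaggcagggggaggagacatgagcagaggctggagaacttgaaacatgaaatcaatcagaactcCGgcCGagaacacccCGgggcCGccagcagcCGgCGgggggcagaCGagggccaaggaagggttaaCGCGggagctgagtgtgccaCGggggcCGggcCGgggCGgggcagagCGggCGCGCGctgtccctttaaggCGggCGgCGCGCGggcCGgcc
Lgr4: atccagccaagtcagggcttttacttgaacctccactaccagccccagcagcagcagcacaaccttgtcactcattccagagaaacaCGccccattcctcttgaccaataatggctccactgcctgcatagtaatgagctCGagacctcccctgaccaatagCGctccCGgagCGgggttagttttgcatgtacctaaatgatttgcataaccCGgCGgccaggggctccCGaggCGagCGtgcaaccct

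The Wnt7a window was 77.6% G and C with 34 CG dinucleotides, the Axin2 window 69.2% with 24, and the Lgr4 window 55.6% with 10. Over all 32851 windows of this length the medians were 52.4% and 6. Of the members, 7 had windows, 12 in all; Wnt10a, Wnt7b and Znrf3 had none. The core letters recognised by TCF and LEF factors, CTTTGA on either strand (TCAAAG on the other), stood in 13.8% of all windows. They stood in 1 of the 12 member windows, at a start of Lef1, with 2 matches.

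The 3 ligands were all higher in B cells, and had the most uneven levels of the 7 members at 5 CPM or more in either group. Wnt10a, a ligand known from skin, tooth and hair development, had 53 UMIs in A cells, or 1.32 CPM (0.986 to 1.72), and 2894 UMIs in B cells, or 54.8 CPM (52.9 to 56.9). That is a 41.7-fold higher level in B (31.8 to 55.8). Wnt7a, known from limb patterning and the female reproductive tract, had 63 UMIs in A, or 1.56 CPM (1.20 to 2.00), and 2626 in B, or 49.8 CPM (47.9 to 51.7), 31.8-fold higher in B (24.8 to 41.5). Wnt7b, its close relative, known from lung and kidney epithelium, had 26 UMIs in A, or 0.646 CPM (0.422 to 0.946), and 1426 in B, or 27.0 CPM (25.6 to 28.5), 41.9-fold higher in B (28.4 to 64.3). No ligand's interval in A reached its interval in B. Wnt7a and Wnt7b transcripts in the annotation shared no run longer than 23 bases.

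**Figure D1:**
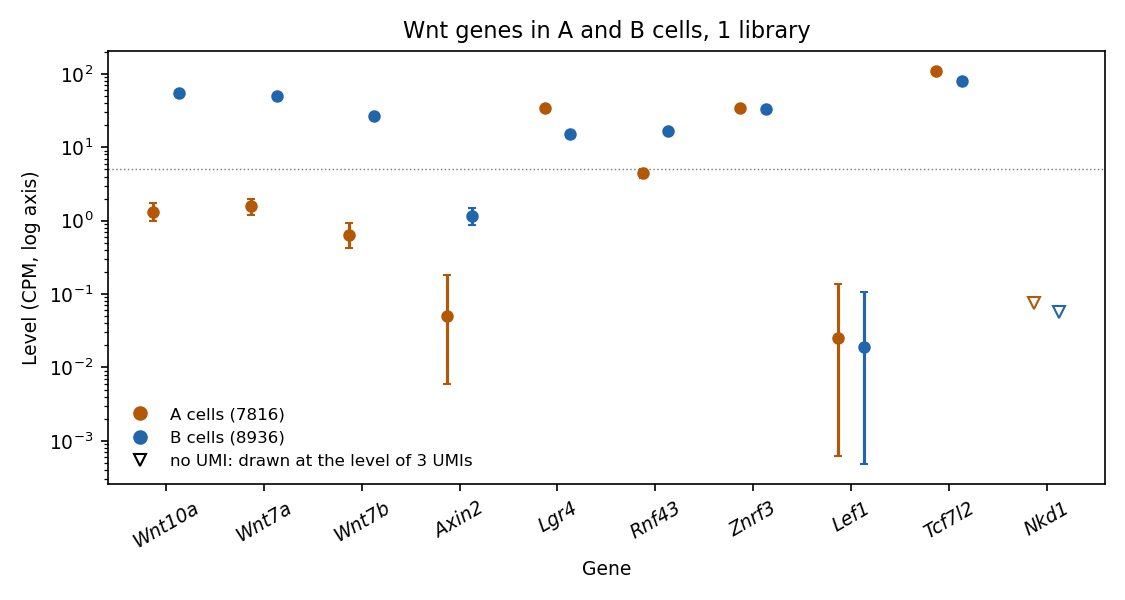
Level of each member in A and B cells, in CPM of summed UMIs on a log axis, with 95% Poisson intervals that cover counting error only; the dotted line is the minimum of 5 CPM, and open triangles mark a count of 0 drawn at 3 UMIs. Wnt10a, Wnt7a and Wnt7b lie between 0.646 and 1.56 CPM in A cells and between 27.0 and 54.8 CPM in B cells, Lgr4 is higher in A, and the Znrf3 points lie at the same height.

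RNA that crosses between barcodes could place ligand UMIs in A cells, but such transfer was not measured. The 20 other features most uneven towards B, each at 50 CPM or more there, reached a median of 4.40% of their B level in A cells (1.39 to 6.24%). The A level was 2.40% of the B level for Wnt10a, 3.14% for Wnt7a and 2.39% for Wnt7b. All 3 lie within the range of those features, so the ligand UMIs in A cells were not above the level that those features reached. Those features may themselves have a true low level in A cells, and the source of the ligand UMIs there was not tested. The folds moved with how A cells were chosen. Without barcodes marked as doublets by Scrublet they became 69.8 for Wnt10a, 44.7 for Wnt7a and 88.5 for Wnt7b. With at least 4 UMIs of a cell's own set and 0 of the other they were 88.1, 41.2 and 80.3. Cells thinned to 2000 UMIs gave 71.1 for Wnt10a, and cells weighted equally gave 65.4 for Wnt7b. These values exceed the first ones, while the stricter cell filter (at least 4000 UMIs) gave lower folds of 36.9 for Wnt10a, 30.6 for Wnt7a and 31.3 for Wnt7b. The same uneven features also fell, to a median of 3.27% (0.812 to 5.11) without marked doublets and 3.07% (0.819 to 4.84) under the rule of at least 4 UMIs, and the ligands stayed within those ranges.

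In these cells the 3 ligands made up nearly all Wnt message of the B group and little of the A group's. Of 19 Wnt genes, 11 had a UMI in B cells, with 7067 UMIs in all. Wnt10a held 41.0% of these, Wnt7a 37.2% and Wnt7b 20.2%, together 98.3% (98.0 to 98.6). A cells had 1388 Wnt UMIs over 9 genes, of which the 3 ligands held 10.2% (8.69 to 11.9). There, Wnt4, a ligand of kidney and reproductive tract development, held 71.4% and Wnt5b, a ligand often tied to beta-catenin-independent signalling, held 17.9%. Wnt4 was at 24.6 CPM in A and 1.08 CPM in B, and Wnt5b at 6.16 and 0.701 CPM, so both leaned the opposite way from the 3 ligands. The B level of Wnt4 was 4.39% of its A level, within the 2.39 to 6.42% reached by the 20 features most uneven towards A. For Wnt5b it was 11.4%, above that range. These shares are of 3′ UMIs, in which each transcript is counted about once whatever its length.

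**Figure D2:**
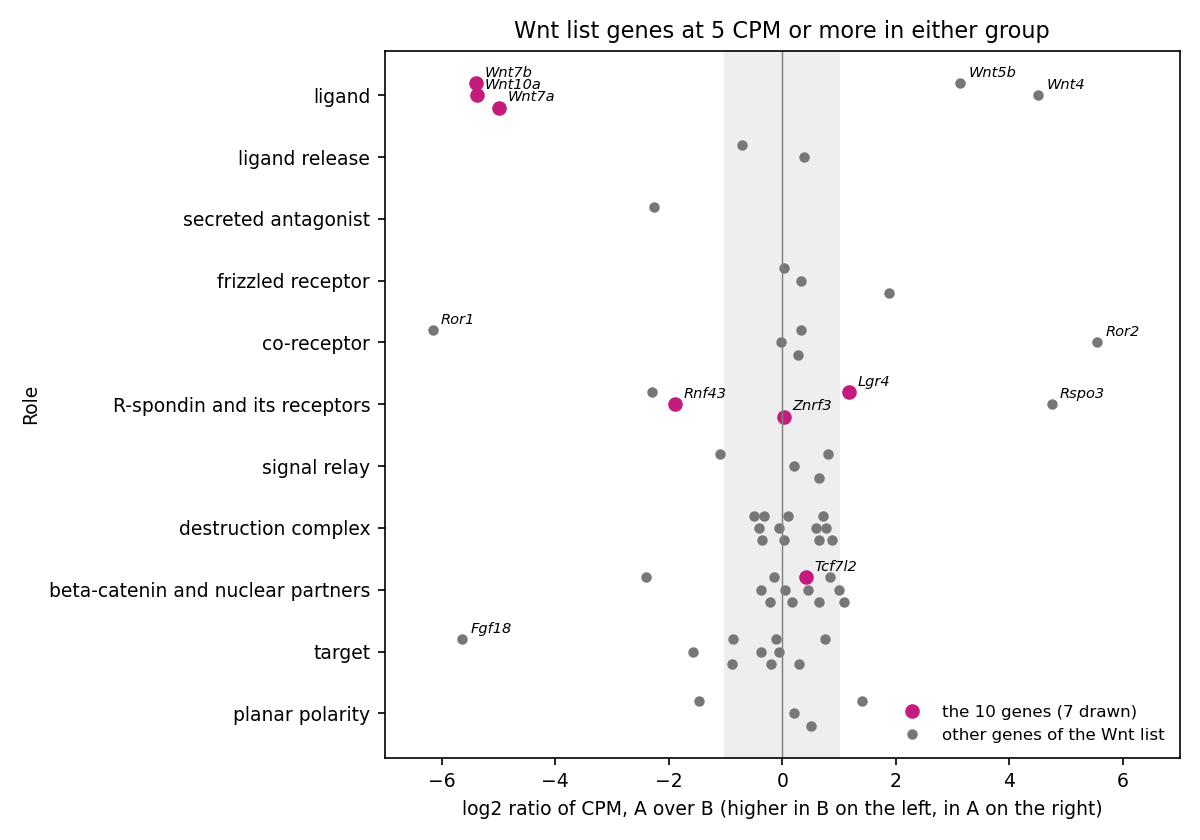
Log2 ratio of the level in A over B cells for each Wnt list gene at 5 CPM or more in either group, arranged by role, with members in magenta and other genes in grey; the shaded band is within 2-fold. The 3 member ligands lie below -4.9, Wnt4 and Wnt5b lie above 3, and genes of the destruction complex lie between -1 and 1.

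Lgr4 was the only member at least 2-fold higher in A cells. Lgr4, the R-spondin receptor most widely found in epithelia, had 1385 UMIs in A, or 34.4 CPM (32.6 to 36.3), and 801 in B, or 15.2 CPM (14.1 to 16.3). The ratio was 2.27-fold (2.08 to 2.47), or 1.18 on the log2 scale (1.05 to 1.31). This gene sits close to the limit: after subtracting 0.18, the median log2 ratio of all features tested, it was 1.00, just under a 2-fold difference. Lgr4 lies on chromosome 2, whose features had a median log2 ratio of 0.57; the part of that shift in the Lgr4 ratio was not tested. Its relative Lgr6 leaned towards B, at 1.61 CPM in A and 7.96 CPM in B, and Lgr5 had 1 UMI in A and 0 in B. The R-spondin gene Rspo3, which encodes a ligand of these receptors, was at 24.9 CPM in A and 0.929 CPM in B, 26.8-fold higher in A; its B level was 3.74% of its A level, within the 2.39 to 6.42% reached by the 20 features most uneven towards A.

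The ubiquitin ligases parted from each other. Rnf43 had 179 UMIs in A cells, or 4.44 CPM (3.82 to 5.15), and 869 in B, or 16.5 CPM (15.4 to 17.6), a 3.70-fold higher level in B (3.15 to 4.38). Its A level was 27.0% of its B level, above the 1.39 to 6.24% of the 20 most uneven features. Znrf3, which acts on the same receptors, had 1375 UMIs in A and 1755 in B, or 34.1 CPM (32.4 to 36.0) and 33.3 CPM (31.7 to 34.8). Its log2 ratio of 0.04 (-0.06 to 0.14) included 0, and it was -0.14 after centring on the median feature, so no direction is given for it.

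Transcripts of the inhibitors Axin2 and Nkd1 were scarce. Axin2, the scaffold that most often serves as a readout of beta-catenin activity, had 2 UMIs in A cells and 61 in B, or 0.0497 CPM (0.00601 to 0.179) and 1.16 CPM (0.884 to 1.48). The ratio was 23.3-fold higher in B with a counting interval of 6.17 to 197. The A level, 4.30% of the B level, was within the 1.39 to 6.24% reached by the 20 features most uneven towards B. Nkd1, the Dishevelled-binding inhibitor, had 0 UMIs in both groups, which allows up to 0.0745 CPM in A and 0.0568 CPM in B. That also allows a UMI in up to 0.0384% of A cells and 0.0336% of B cells.

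Of the nuclear factors, Tcf7l2 was the most abundant member in UMIs. It encodes the TCF factor found in most epithelia, and had 4376 UMIs in A and 4293 in B, or 109 CPM (105 to 112) and 81.4 CPM (78.9 to 83.8). The ratio was 1.34-fold higher in A (1.28 to 1.39), under the 2-fold limit, on chromosome 19, whose features had a median log2 ratio of -0.50. Lef1, which is usually made where Wnt signalling is strong, had 1 UMI in A and 1 in B, so no fold is given. Tcf7, another factor of this family, was at 6.28 CPM in A and 6.10 CPM in B.

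Taking the 5 CPM minimum, 7 of the 10 members could be compared: 4 were at least 2-fold higher in B, 1 was higher in A and 2 lay within 2-fold. The 4 (Wnt10a, Wnt7a, Wnt7b and Rnf43) passed the minimum only in B cells, where they are high. Members were also chosen with earlier results of these data known, so the counts and ranks only describe them. Among all 10171 features at that minimum, 8.02% (816) were at least 2-fold higher in B, 11.6% (1184) were higher in A, and 19.7% were either. After centring on the median feature the split turned to 885 higher in A and 1007 higher in B. Only 0.344% of features had a lower log2 ratio than Wnt10a, 0.324% a lower one than Wnt7b and 0.649% a lower one than Wnt7a. Rnf43 had 4.30% of features below it, and Lgr4 had 8.70% above it.

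The other genes of the pathway came from a list of 132 genes, of which 131 were in the matrix and 121 were not members. At 5 CPM or more in either group were 56 of these, of which 8 were at least 2-fold higher in A, 8 higher in B and 40 within 2-fold. Their median log2 ratio was 0.13, against 0.18 over all features. After centring on the median feature the counts were 6 higher in A and 10 higher in B. Of 13 other destruction complex genes 12 passed the minimum and 0 passed 2-fold, where 19.7% of all features did; the member Axin2, of the same role, was below the minimum. Among the 12 was Csnk1a1, a kinase that primes beta-catenin, at 203 CPM in A and 259 CPM in B. Wls, which carries Wnt proteins to the cell surface, was at 214 and 165 CPM, and Porcn, which adds their lipid, at 8.54 and 13.98 CPM. Wls and Porcn were thus detected in both groups and stayed within 2-fold. The other 2 of the 4 listed ligand release genes were below the minimum: Notum had 6 UMIs in A and 0 in B, and Trabd2b 5 and 2.

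Ror1 and Ror2 encode related receptor kinases that bind Wnt5-type ligands. Ror2 was at 29.1 CPM in A and 0.625 CPM in B, 46.5-fold higher in A, and Ror1 was at 0.273 CPM in A and 19.5 CPM in B, 71.5-fold higher in B. The lower level was 2.15% of the higher for Ror2 and 1.40% for Ror1. Neither was above the range of the 20 features most uneven in that direction (2.39 to 6.42% towards A, 1.39 to 6.24% towards B). These folds thus rest on a lower level whose source was not tested. Fzd1, a Frizzled receptor, was 3.68-fold higher in A (10.4 and 2.82 CPM). The most abundant Frizzled, Fzd5, was at 20.8 and 16.5 CPM, and the most abundant co-receptor gene, Ryk, at 77.9 and 64.3 CPM, both within 2-fold. Apcdd1, a membrane-bound inhibitor of Wnt ligands, was 4.78-fold higher in B (2.04 and 9.74 CPM).

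Among nuclear partners and targets, Tle4, a co-repressor of TCF factors, was 5.26-fold higher in B (19.4 and 102 CPM), and the co-repressor Tle3 was 2.13-fold higher in A (17.3 and 8.13 CPM), a call that centring on the median feature ended. The growth factor gene Fgf18 was 49.9-fold higher in B (0.497 and 24.8 CPM). Its A level was 2.00% of its B level, within the 1.39 to 6.24% reached by the 20 features most uneven towards B. The ductal transcription factor gene Sox9 was 2.97-fold higher in B (1.91 and 5.68 CPM). The other 8 targets at the minimum were within 2-fold, among them the cyclin gene Ccnd1 at 274 CPM in A and 506 CPM in B. Thus 2 of 10 listed targets passed 2-fold, both towards B, near the 19.7% of all features that passed either way. After centring on the median feature 4 of 10 passed towards B, with Ccnd1 and Id2 (129 CPM in A and 236 CPM in B) added. Of all 10171 features 1007 then passed towards B and 885 towards A.

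Shares of cells with a UMI were read after each cell was thinned to 2000 UMIs, since B cells were deeper. Wnt10a was seen in 10.1% of B cells and 0.154% of A cells, Wnt7a in 9.62 and 0.218%, and Wnt7b in 5.05 and 0.0896%. Lgr4 was seen in 7.04% of A cells and 2.94% of B cells, Rnf43 in 0.857 and 3.16%, Znrf3 in 6.35 and 6.36%, and Tcf7l2 in 19.3 and 14.9%. Axin2 was seen in 0.013% of A cells and 0.224% of B cells. Lists of markers of other cell types were read at the same depth. The endocrine list was seen in 0.0256% of A cells and 0.0224% of B cells, and the immune list in 0.806 and 0.168%. The erythroid list was seen in 0.141 and 0.683%, and the acinar list, mostly Prss2, in 2.49 and 0.839%. The endothelial list, mostly Egfl7, was seen in 7.15 and 1.86%, and the fibroblast list, nearly all Acta2, in 15.2 and 0.985%. In A cells Acta2 was at 144 CPM and Egfl7 at 32.6 CPM, so neither list stands for genes that A cells lack. In B cells the ligands, Rnf43, Lgr4, Znrf3 and Tcf7l2 were above each of these 6 lists, and in A cells Tcf7l2 was. The ligands, Rnf43, Lgr4 and Znrf3 in A cells, and Axin2 in B cells, were above some lists and not others, and Axin2 in A cells was below all of them. Lgr4 and Znrf3 in A cells were below only the endothelial and fibroblast lists. Each list sums several genes and is not the share of 1 gene. A share that is not above every list is therefore given as a value, and this comparison shows neither its presence nor its absence. Within the library, the Axin2 share in B cells (0.137 to 0.345%) lay above that in A cells (0.000324 to 0.0713%).

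**Figure D3:**
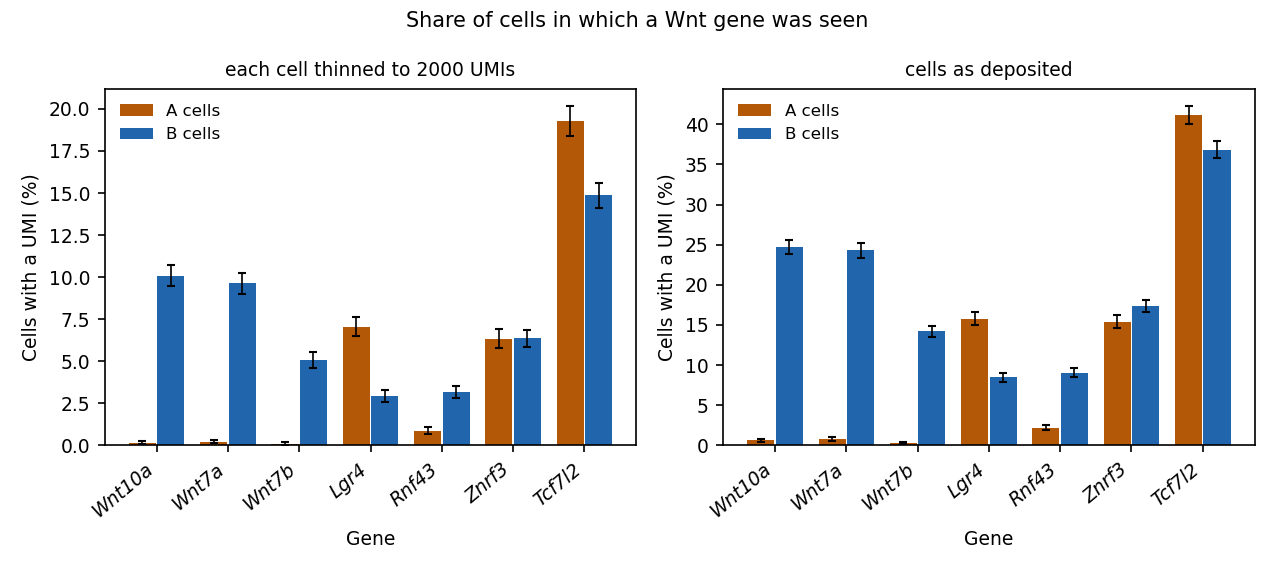
Percent of A and B cells with at least 1 UMI of each of 7 members, after thinning every cell to 2000 UMIs (left) and at the deposited depth (right, on its own scale), with 95% Clopper-Pearson intervals. The ligands and Rnf43 are higher in B cells and Lgr4 and Tcf7l2 in A cells in both panels, while the Znrf3 bars, 6.35 and 6.36% after thinning, stand at 15.4 and 17.3% at the deposited depth.

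Without thinning, at median depths of 4699.5 UMIs in A and 5440.5 in B, Wnt10a was seen in 24.7% of B cells, Wnt7a in 24.3% and Wnt7b in 14.2%, against 0.627, 0.780 and 0.281% of A cells. Lgr4 was seen in 15.8% of A and 8.47% of B cells, Rnf43 in 2.23 and 9.06%, Znrf3 in 15.4 and 17.3%, and Tcf7l2 in 41.2 and 36.8%. Most cells that held Wnt10a held little of it: 1721 B cells had 1 UMI, 368 had 2, and 121 had 3 or more, with 14 the highest. In the thinned B cells the variance of the Wnt10a count was 1.07 times its mean, where counting alone gives 1. For the other members with enough UMIs the ratio lay between 0.99 and 1.06. At so few UMIs a cell this ratio stays near 1 even where cells differ, so it sets no limit on the spread between cells.

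Each ligand was seen in part of the B cells, and few B cells had UMIs of more than 1 ligand. With counts this sparse, joint shares are low even for unrelated genes, so they do not show that separate cells made separate ligands. Without thinning, 49.2% of B cells (4400) had a UMI of any of the 3 ligands: 36.5% had 1 of them, 11.5% had 2 and 1.22% (109 cells) had all 3. At 2000 UMIs a cell, 22.6% had any, 2.06% had 2 and 2 cells had all 3. Of A cells, 1.55% had any without thinning and 0.448% at 2000 UMIs.

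Co-detection asks whether a cell with a UMI of one member is more often seen with another. Of the 45 member pairs, 17 had at least 20 B cells with both at 2000 UMIs, and their odds ratios ran from 0.767 to 1.33 with a median of 1.07. In A cells 3 pairs qualified, at 0.845 to 1.05. In 0 of these pairs did the interval of the share among cells with the first gene clear the interval among cells without it. A weak relation in counts this sparse could not be seen, so the intervals bound what was measured and do not show independence.

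For the ligands in B cells, Wnt7a was seen in 11.01% (9.04 to 13.2) of cells with Wnt10a and 9.47% (8.84 to 10.1) of those without. Wnt7b was seen in 4.45% (3.20 to 6.01) of cells with Wnt10a and 5.11% (4.64 to 5.62) of those without. It was also seen in 5.93% (4.45 to 7.72) of cells with Wnt7a and 4.95% (4.49 to 5.45) of those without. At this depth the intervals overlapped for each ligand pair. The highest odds ratio, 1.33, was of Wnt7b with Tcf7l2, which was seen in 18.6% (15.1 to 22.5) of cells with Wnt7b and 14.7% (13.9 to 15.4) of those without. At 4000 UMIs its direction turned, to 26.0% (23.0 to 29.2) with and 27.7% (26.6 to 28.7) without. Across ligand and feedback, Rnf43 was seen in 3.89% (2.73 to 5.37) of B cells with Wnt10a and 3.07% (2.71 to 3.47) of those without, and at 4000 UMIs in 6.32 and 6.34%. Rnf43 with Znrf3 also turned: Znrf3 was seen in 8.16% (5.24 to 12.0) of B cells with Rnf43 and 6.30% (5.79 to 6.83) of those without at 2000 UMIs, and in 9.90% (7.44 to 12.8) and 12.9% (12.2 to 13.7) at 4000. In A cells, Znrf3 was seen in 5.64% (3.86 to 7.91) of cells with Lgr4 and 6.40% (5.85 to 6.99) of those without.

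**Figure D4:**
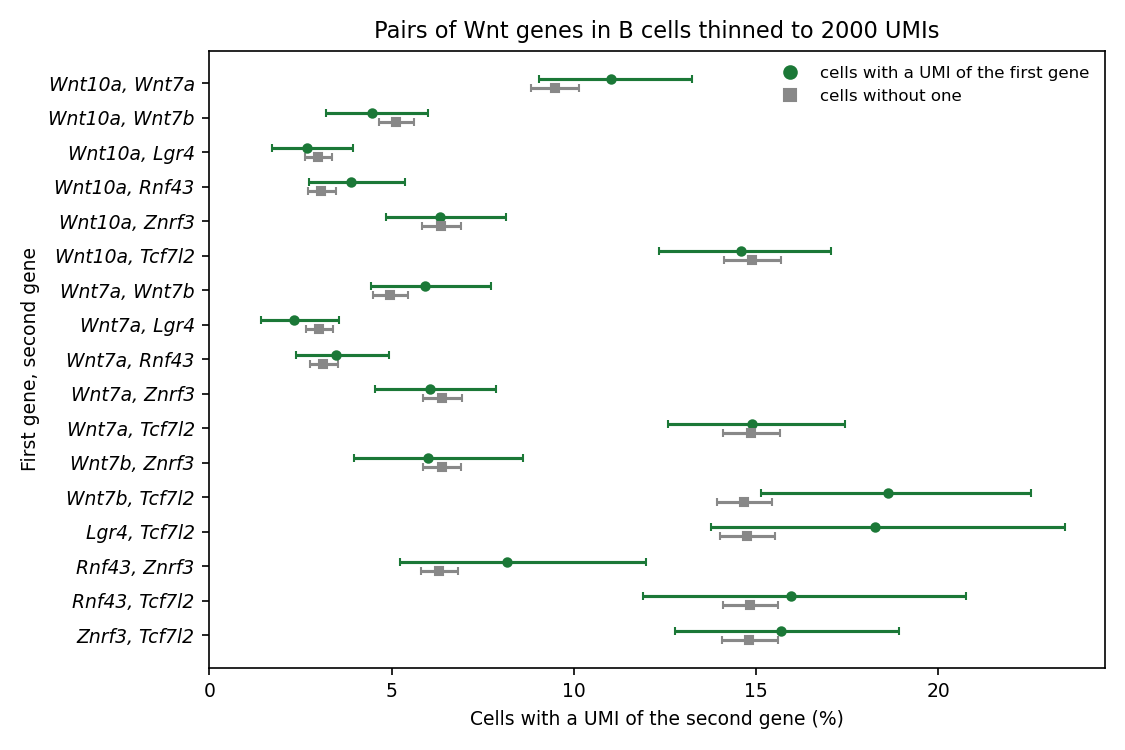
Percent of B cells with a UMI of the second gene of a pair, among cells with a UMI of the first gene (green) and among cells without one (grey), for the 17 pairs with at least 20 B cells holding both, at 2000 UMIs a cell. Bars are 95% Clopper-Pearson intervals, and in each pair the 2 intervals overlap.

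The relations among the ligands changed with the depth used. Without thinning, where cells of unlike depth are mixed, Wnt7b was seen in 17.6% (16.1 to 19.3) of B cells with Wnt10a and 13.05% (12.3 to 13.9) of those without, and Wnt7a in 27.7% (25.8 to 29.6) and 23.1% (22.1 to 24.2). Wnt7b was seen in 16.3% (14.8 to 17.9) of B cells with Wnt7a and 13.5% (12.7 to 14.3) of those without. The intervals of all 3 ligand pairs were thus separate without thinning, where depth was not held equal. This was not particular to the ligands. In B cells without thinning, the intervals of Wnt7a with Rnf43 and of Lgr4 with Znrf3 were also separate, while those of Wnt10a with Znrf3 overlapped. With cells thinned to 4000 UMIs, which left out 967 shallower B cells, Wnt7b was seen in 11.8% (10.3 to 13.6) and 9.79% (9.08 to 10.5), so the intervals overlapped and the direction for this pair differed from that at 2000 UMIs. At 4000 UMIs Wnt7a was seen in 18.7% (16.8 to 20.8) of cells with Wnt10a and 17.6% (16.7 to 18.6) of those without, and Wnt7b in 11.1% (9.53 to 12.9) of cells with Wnt7a and 9.97% (9.26 to 10.7) of those without.

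Within each group the members also varied along an expression range. B cells were ordered from an end with the growth factor and chloride channel genes Areg, Btc and Cftr to an end with the squamous-type genes Krt14, Sprr1a and Krt6a. They were then cut into 3 equal parts. These are ranges of a score and not cell types. Wnt10a was at 44.6, 52.9 and 66.5 CPM from the Areg end to the Krt14 end, a log2 difference of 0.57 (0.44 to 0.71). Wnt7b was at 20.7, 26.9 and 33.2 CPM, a difference of 0.68 (0.49 to 0.87), and Wnt7a at 45.2, 50.2 and 53.6 CPM, a difference of 0.24. All 3 ligands were thus highest at the Krt14 end. Scored on thinned cells, where 2323 cells tied at the lower boundary and 3272 at the upper and were split in barcode order, the differences were 0.35 for Wnt10a, 0.51 for Wnt7b and 0.13 for Wnt7a, whose interval then included 0 (-0.0039 to 0.27).

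No clear direction was measured for the feedback genes along this range. Axin2, with 61 UMIs over the parts, was at 1.41, 1.28 and 0.785 CPM (-0.85, -1.91 to 0.16). Rnf43 was at 16.9, 18.0 and 14.5 CPM (-0.22, -0.47 to 0.03), Znrf3 at 32.9, 34.1 and 32.7 CPM (-0.01, -0.18 to 0.16) and Lgr4 at 14.5, 15.9 and 15.1 CPM (0.06, -0.19 to 0.32), and each of these intervals includes 0. Tcf7l2 was at 85.2, 80.8 and 78.3 CPM (-0.12, -0.23 to -0.02). Scored on thinned cells, the differences were -0.08 for Tcf7l2, -0.09 for Rnf43, 0.04 for Znrf3 and 0.22 for Lgr4. Of the other pathway genes uneven towards B, Ror1 was at 14.0 CPM at the Areg end and 27.2 CPM at the Krt14 end. Fgf18 was at 17.5 and 33.5 CPM, and Sox9 at 3.65 and 7.34 CPM. Apcdd1 ran the other way, at 13.4 and 7.34 CPM.

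A cells were ordered from an end with Tnc, Acta2 and Ptchd4 to an end with S100g, Epcam and Tm4sf20. At the upper boundary 1771 A cells had the same score and were split in barcode order. Lgr4 was at 26.6, 32.4 and 45.1 CPM from the first to the last part, a log2 difference of 0.76 (0.57 to 0.95). Znrf3 ran the opposite way at 39.7, 33.3 and 29.0 CPM (-0.45), Tcf7l2 was at 101, 106 and 120 CPM (0.24), and Rnf43 at 3.17, 5.46 and 4.74 CPM. Among other genes Rspo3 was at 33.5 CPM at the Tnc end and 16.8 CPM at the S100g end, so the ligand was high where its receptor Lgr4 was low. On thinned cells, with 1573 cells tied at the lower boundary and 3444 at the upper, the differences were 0.62 for Lgr4, -0.44 for Znrf3 and 0.20 for Tcf7l2.

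**Figure D5:**
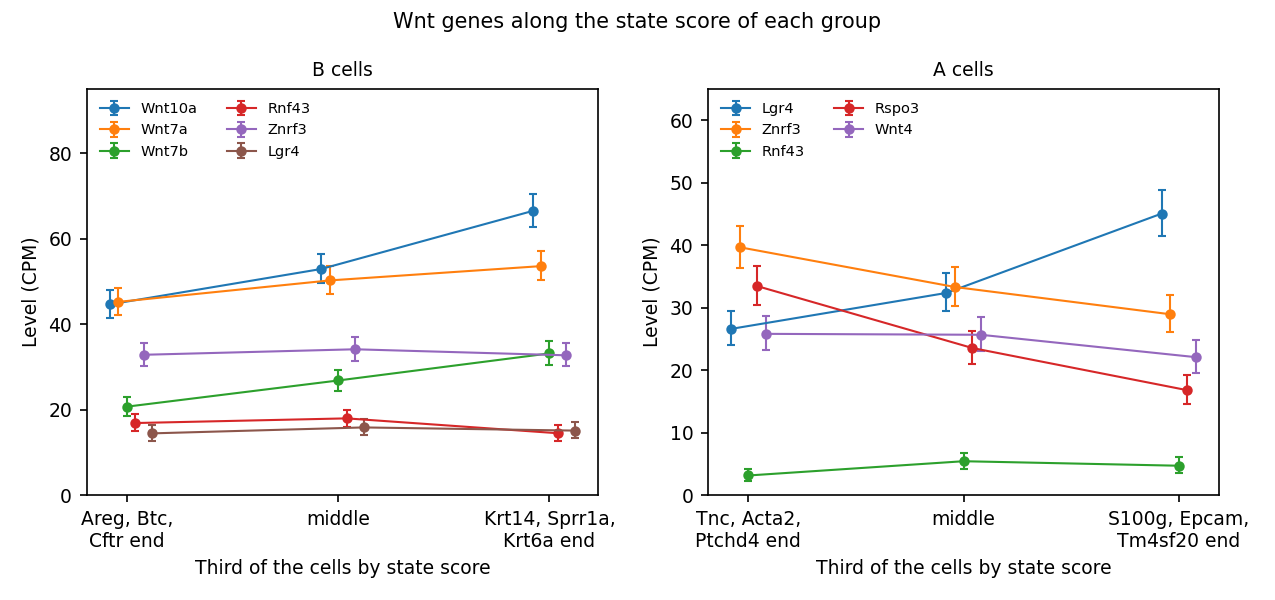
Levels in CPM across 3 equal parts of B cells (left, Areg end to Krt14 end) and of A cells (right, Tnc end to S100g end), for members and, in A cells, also Rspo3 and Wnt4, with 95% Poisson intervals. In B cells Wnt10a and Wnt7b are highest at the Krt14 end, and in A cells Lgr4 is highest at the S100g end while Znrf3 and Rspo3 are highest at the Tnc end.

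Other measures moved with the same genes. Over parts of A cells cut by mitochondrial share, Lgr4 was at 27.0 CPM in the lowest and 44.1 CPM in the highest, and S100g, Epcam and Tm4sf20 together at 130 and 434 CPM. By depth Lgr4 was at 43.9 CPM in the shallowest and 31.5 CPM in the deepest cells, and by a list of S-phase genes at 42.9 and 29.6 CPM. In B cells Wnt10a was at 47.9 CPM in the shallowest and 60.9 CPM in the deepest cells, and at 60.9 and 48.5 CPM from low to high S-phase score. Wnt7b was at 30.8 and 24.6 CPM by S-phase score and at 32.4 and 23.8 CPM by a G2/M score. The part of depth, mitochondrial share and cell cycle in these differences was not tested.

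The genes most like each member across cells were found by Pearson correlation of log-scaled counts, over 5960 features in B cells and 6403 in A cells. The highest values were weak, under 0.1, and points share depth and library. The lowest were -0.115 for Wnt7b with Rpl6 and -0.110 for Lgr4 with Npm1, named after their values were seen. Wnt10a was most like Cstb (r = 0.093), Cxcl16 (0.087) and Basp1 (0.085), Wnt7b most like Basp1 (0.080), Clu (0.077) and Tpm1 (0.066), and Wnt7a most like Ankrd1 (0.063), Malat1 (0.061) and Ptgs2 (0.061). In A cells Lgr4 was most like Epcam (0.097), a gene of the score above, Slc40a1 (0.094) and Sult1c2 (0.092). Znrf3 was most like Ncl (0.067), Npm1 (0.066) and Pabpc1 (0.057), and Tcf7l2 most like Onecut2 (0.060), Foxq1 (0.059) and Ptprj (0.057).

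Some counts can be shared with other genes. The annotated gene AU022754 lies on the opposite strand and overlaps exon bases of Wnt7b, and had 1 UMI in A cells and 70 in B. Whether counting used strand is not given in the sources used here, so reads of the pair may not have been told apart. Gm11670, which overlaps Axin2, had 0 UMIs in both groups.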

How the data were processed

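One library of pooled clones was analysed. The authors deposited UMI counts per gene and barcode, whole numbers with no normalization, written by Cell Ranger 8.0.1 per the file headers and aligned to GRCm39 per the submitters' processing notes. The annotation, strand setting and any filter of barcodes are not given in the sources used here. From these counts UMIs were summed over A and over B cells and scaled to CPM in python 3.11.15 with numpy 2.4.6 and scipy 1.17.1. Sums have exact Poisson intervals, ratios have intervals from the exact binomial split of UMIs, and shares have Clopper-Pearson intervals, all at 95%. They cover counting error only; a count of 0 was taken as up to 3 counts. No test was run, because cells of 1 library are not replicates. A difference was counted from 2-fold, in features at 5 CPM or more in either group. Doublets were not removed: Scrublet (scanpy 1.11.5) marked 778 of the kept barcodes (3.64%), 146 in A, 208 in B and 315 of the 464 with both gene sets, and leaving them out was an alternative. Thinning used a fixed seed. State scores are means of log-scaled counts per 10000 of 3 genes minus 3 others. The genes named were the members, from the pathway list the most abundant gene of each role and up to 25 genes past 2-fold, and the 3 features most correlated with each member at 20 CPM or more. Porcn, Tcf7, Lgr5, Id2 and single marker genes were named after their values were seen. The members and lists were chosen with earlier results of these data known. Chromosome names and gene overlaps came from GENCODE M21, whose build differs from that of the counts. Scripts were tested on simulated data.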

Additional observations from a re-analysis of the deposited data

Results flagged for a closer look

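Barcodes outside the A and B groups also carried the 3 ligands. In the 464 barcodes that held both gene sets, Wnt10a, Wnt7a and Wnt7b summed to 60.2 CPM (52.8 to 68.3). In the 4145 that met no rule they summed to 37.4 CPM (34.7 to 40.3). The same sum was 3.53 CPM in A cells and 132 CPM in B cells, so both lay between the groups and above the limit of a count of 0. Among the single ligands, Wnt10a was at 22.2 CPM in the first kind and 16.4 CPM in the second. These barcodes enter none of the comparisons, and their difference from the groups was not tested.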

How the results depend on the processing

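Alternatives were looser and stricter cell filters, a purer rule for A and B cells, doublets left out, thinned cells, cells weighted equally, totals without mitochondrial and ribosomal-protein genes, centring on the median feature and other level minimums. Members at least 2-fold higher in B numbered 4 in all 8 alternatives; those higher in A numbered 1 in 7 and 0 after centring, because the Lgr4 ratio fell from 1.18 to 1.00. Of the other pathway genes, 4 were higher in A and 2 higher in B at a minimum of 20 CPM, against 8 and 8 at 5 CPM (fewer genes pass it), 12 and 10 at 1 CPM, and 6 and 10 after centring, where Tle3 and Bcl9l lost their calls. Under the other alternatives 7 to 8 were higher in A and 8 to 10 higher in B, with 10 when mitochondrial and ribosomal-protein genes left the totals. Of 64 log2 ratios of members, 52 stayed within their counting interval, 12 moved outside it and 0 that passed 2-fold reversed, while the Znrf3 ratio went from 0.04 to -0.14 after centring. Over the alternatives the fold towards B ran from 36.9 to 88.1 for Wnt10a, 30.6 to 47.1 for Wnt7a and 31.3 to 88.5 for Wnt7b, and the Axin2 log2 ratio from -5.24 to -4.13. The values of the 20 most uneven features under the purer rule and without Scrublet-marked barcodes were chosen after seeing the data. No paired analysis was possible because there is 1 library. With 1 library no replicate could be left out, and depth limits Axin2, Lef1, Nkd1 and every pair of rare genes.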

Other observations

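Of genes that act apart from beta-catenin, Daam1, a formin that links Dishevelled to the actin cytoskeleton, was at 81.4 CPM in A cells and 30.8 CPM in B cells, 2.64-fold higher in A, and at 67.4 CPM at the Tnc end and 106 CPM at the S100g end of the A cells. Celsr1, a cadherin of planar cell polarity, was at 4.20 and 11.7 CPM, 2.78-fold higher in B. Of 10 planar polarity genes 4 reached 5 CPM, 1 higher in A, 1 higher in B and 2 within 2-fold, against 19.7% of all features past 2-fold.

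Among genes of the relay and nuclear step, Frat2, an inhibitor of the kinase that marks beta-catenin for destruction, was at 4.10 and 8.74 CPM, 2.13-fold higher in B. Bcl9l, a coactivator of beta-catenin, was at 14.8 and 7.39 CPM, 2.00-fold higher in A, a call that centring on the median feature ended. Tle5, the most abundant nuclear partner, was at 428 and 473 CPM, and Dvl1, the most abundant relay gene, at 22.9 and 19.9 CPM. Of the 121 other listed genes, 24 had no UMI in either group. Wnt4, highest of the Wnt genes in A cells, was at 25.8 CPM at the Tnc end and 22.1 CPM at the S100g end.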
